A study of Mus musculus with 12 samples.

Results

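The genes described here encode the mitochondrial carriers of the solute carrier family 25, and their levels were compared between 2 diets in the small intestine of mice. The members were selected by symbol, as every gene whose symbol starts with Slc25a and that is named alone by a probe set, without the citrate carrier gene Slc25a1 and the carnitine-acylcarnitine carrier gene Slc25a20. This gave 44 of the 19937 genes on the arrays, and each gene was read from its brightest probe set. Of these, 34 lay above the 40th percentile of mean level over all genes (an intensity of 85.6) and were tested, and 10 were too dim to test. The dimmest member tested was Slc25a14 at a mean intensity of 93.0, and the brightest left out was Slc25a43 at 84.5.

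Total RNA was hybridized to 12 Affymetrix whole-transcript arrays, 6 from each diet. Per the labels, all mice were wild-type FVB males with an age given as 8 weeks, and each diet was fed for 8 weeks. The control group ate a diet labelled Control HF, a high-fat diet, and the other group ate the Low P/S diet, in which polyunsaturated fat is scarce relative to saturated fat and whose total fat the labels do not give. Neither the gut segment nor the hours of dissection and last feeding are given, and whole intestine mixes many cell types. Intensity is the deposited linear value of a probe set, and probe sets differ in brightness, so levels of different genes are not set against each other. A log2 difference is the low P/S mean less the control mean, ± is its standard error from limma with 6 arrays per diet, and an adjusted p is limma's two-sided p after Benjamini-Hochberg adjustment across all 11962 genes tested. A gene passed where this was under 0.05.

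Mitochondrial carriers are small proteins of the inner mitochondrial membrane, which is otherwise closed to most metabolites. Each is built from repeats of a pair of membrane helices and swaps or imports a narrow set of solutes, such as ADP for ATP, phosphate, dicarboxylates, amino acids, cofactors or iron. In the small intestine these carriers feed oxidation of glutamine and glutamate, the making of citrulline from ornithine, and the transfer of reducing equivalents from the cytosol.

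Of the 34 carriers tested, 6 had more transcript on the low P/S diet, 5 had less and 23 did not pass. The iron carrier gene Slc25a37 and the glutamate carrier gene Slc25a22 fell by 0.60 ± 0.08 and 0.43 ± 0.09, and the oxoglutarate-malate carrier gene Slc25a11 rose by 0.39 ± 0.07. The workhorse genes of energy exchange, Slc25a5 and Slc25a4 for ADP and ATP and Slc25a3 for phosphate, had differences within 0.05 of 0. The share of carriers that passed in either direction was 32.4%, against 25.7% of all genes tested. By direction, 6 of the 34 carriers were higher, against 17.8% of all genes tested, and 5 of the 34 were lower, against 7.87%. No test was made of these shares. The median difference of the 34 carriers was 0.04, against 0.02 over all genes tested, and 25 of them differed by less than 0.2 on the log2 scale. Both medians were at or below 0 after quantile normalization (-0.01 for the carriers).

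**Figure D1:**
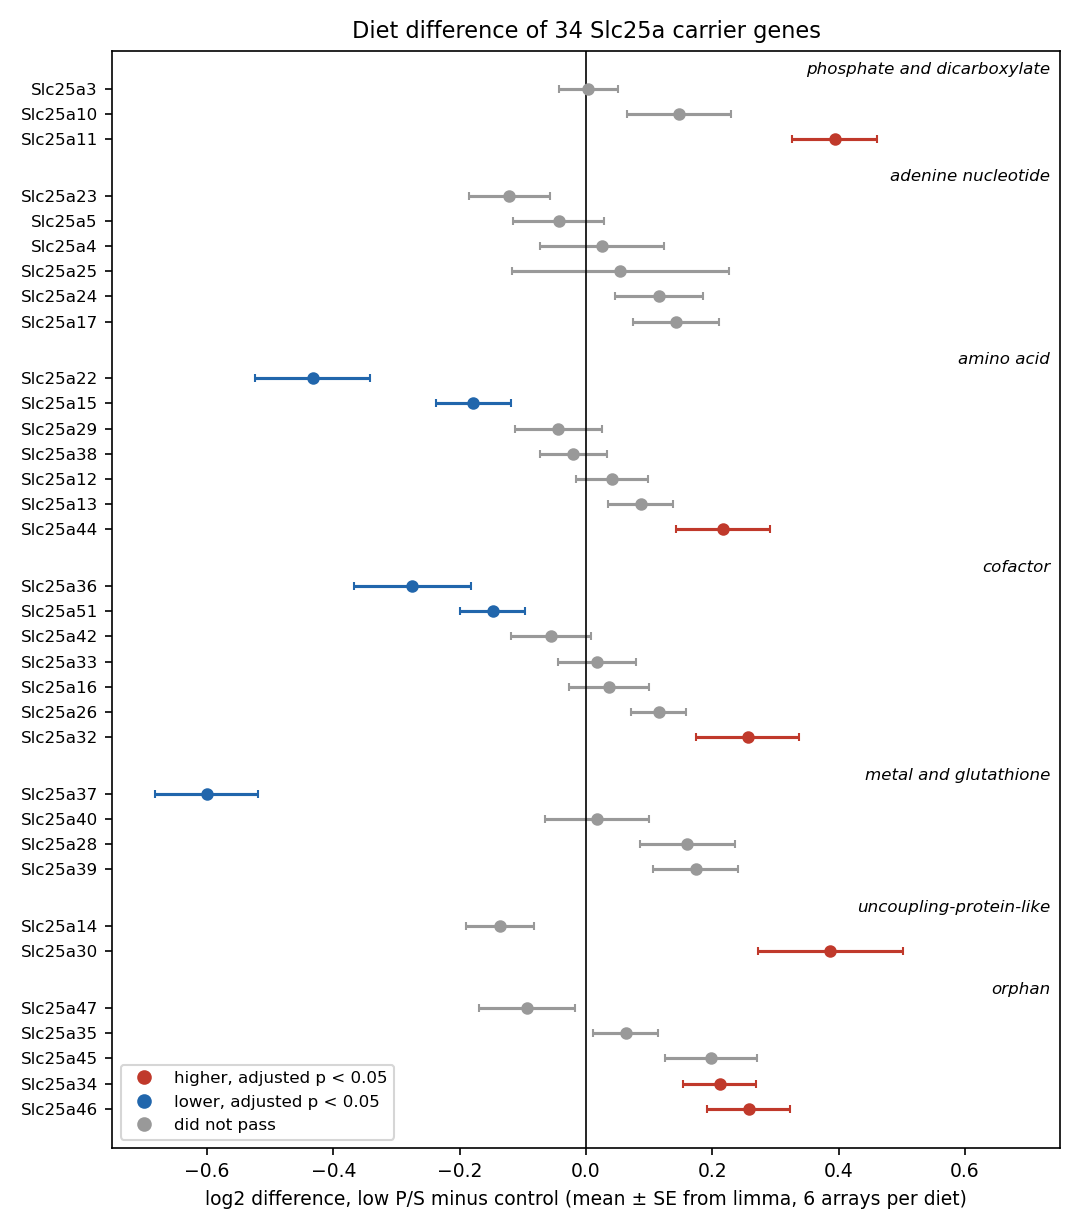
Log2 difference between the diets for the 34 Slc25a carrier genes that were tested, grouped by role. Most groups are named by solute, and the relatives of uncoupling proteins and the members without a well established solute (orphan) form their own groups. Points are low P/S minus control means, bars are standard errors from limma with 6 arrays per diet, and colour marks the 6 genes that were higher, the 5 that were lower and the 23 that did not pass. The largest rise (Slc25a11, 0.39) and the largest fall (Slc25a37, -0.60) lie on opposite sides of a family centred near 0.

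Of the 11 calls, 5 (Slc25a11, Slc25a22, Slc25a34, Slc25a37 and Slc25a46) held in all 23 other fits that were run, and the others depended on single arrays or settings. The alternatives counted for each gene below are these fits without the one that blocks replicate number, which the closing section gives with the check of the pairing. Without control array 6 only 3 carriers were higher. When control array 1 or 4, or any of low P/S arrays 1, 3 and 4, was left out, only 2 were lower, and without control array 6 there were 3. Over all genes tested, control arrays 1 and 2 lay nearer to the mean of the low P/S arrays than the other controls did (root mean square log2 distances of 0.22 and 0.18, against 0.25 to 0.32), although both lay nearer still to the mean of the other controls (0.15 each). Low P/S array 6 lay at 0.20 from the control mean, within the distances of that pair. Without control arrays 1 and 2 together, left out after the data were seen, 9 carriers were higher and 3 lower. Quantile normalization gave 5 higher and 5 lower carriers, and moved the split over all genes from 2132 higher and 942 lower to 1775 higher and 1543 lower. The groups did not overlap for 2 of the 34 carriers, which is 5.88%, against 10.8% of all genes tested. Slc25a11 was apart upward, as were 6.86% of all genes tested, and Slc25a37 downward, as were 3.9%.

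Among 4 carriers of iron and glutathione, 1 fell and 3 did not pass. Slc25a37 encodes mitoferrin 1, which brings iron into mitochondria for heme and iron-sulphur clusters and is best known from red cell precursors. Its intensity in the 6 control mice was 717 at the lowest, 802 at the median and 862 at the highest, and in the low P/S mice 438, 543 and 617. All low P/S arrays lay below all control arrays, and the transcript was 1.52-fold lower (-0.60 ± 0.08, adjusted p = 0.000108). In bulk tissue fewer cells of a type and less RNA per cell cannot be told apart. Of the erythrocyte markers listed, 2 had a probe set that names them alone, with summed intensities of 155 to 185 in controls and 163 to 176 on the low P/S diet, and the 1 bright enough to test did not pass (-0.09). Both lay near the cut-off of 85.6, with control and low P/S geometric means of 89.4 and 84.0 for Slc4a1 and 83.1 and 86.1 for Alas2. The part of these markers in the result was not tested. Slc25a28, mitoferrin 2, is the paralog of Slc25a37 that imports iron in other tissues. It differed the other way by 0.16 ± 0.08 and did not pass (adjusted p = 0.129). It ran from 382 to 453 in controls and from 426 to 602 on the low P/S diet, where low P/S array 2 stood above the rest. The glutathione carrier genes did not pass, with Slc25a39 at 0.17 ± 0.07 (adjusted p = 0.0676) and Slc25a40 at 0.02 ± 0.08 (adjusted p = 0.900). For Slc25a39, low P/S array 2 was again the highest, and 4 of the 6 low P/S arrays lay above the highest control. It passed as higher with array weights (adjusted p = 0.0437, in a range of 0.0437 to 0.361 over its alternatives).

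Among 7 tested carriers of amino acids, 2 fell, 1 rose and 4 did not pass. Slc25a22 imports glutamate into the matrix together with a proton. Its control arrays ran from 425 through a median of 523 to 586, and its low P/S arrays from 339 through 359 to 445. Of the low P/S arrays, 5 lay below every control and low P/S array 1 lay inside the control range. The transcript was 1.35-fold lower (-0.43 ± 0.09, adjusted p = 0.00288), and the highest adjusted p over its alternatives was 0.0193.

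Slc25a15 exchanges cytosolic ornithine for matrix citrulline, a step the intestine uses to release citrulline. Its intensity was 1591 to 1976 in controls with a median of 1751, and 1445 to 1674 on the low P/S diet with a median of 1569. All low P/S arrays lay below the control median, and 4 lay below the lowest control. The fall was 1.13-fold (-0.18 ± 0.06, adjusted p = 0.0376). It no longer passed when control array 1, 4 or 5 was left out, nor when low P/S array 1, 3 or 4 was, and it passed in 13 of 22 alternatives (highest adjusted p = 0.0943).

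Slc25a44 has been tied to the import of branched-chain amino acids. It ran from 456 to 555 in controls with a median of 487, and from 495 to 677 on the low P/S diet with a median of 563. The groups overlapped, and 3 low P/S arrays lay above the highest control. The rise was 1.16-fold (0.22 ± 0.07, adjusted p = 0.0420), and it passed in 12 of 22 alternatives (highest adjusted p = 0.0980). It did not pass with quantile normalization, nor when any of control arrays 3, 4, 5 and 6 or of low P/S arrays 1, 2 and 4 was left out.

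The aspartate-glutamate exchangers of the malate-aspartate shuttle are encoded by Slc25a12 (aralar) and Slc25a13 (citrin). Slc25a12 ran from 227 to 273 in controls with a median of 252, and from 232 to 276 on the low P/S diet with a median of 261 (0.04 ± 0.06, adjusted p = 0.622). Slc25a13 ran from 415 to 478 with a median of 449, and from 442 to 496 with a median of 476 (0.09 ± 0.05, adjusted p = 0.232). In both genes the groups overlapped over most of their range. The basic amino acid carrier gene Slc25a29 (-0.04 ± 0.07) and Slc25a38, whose product brings in glycine for heme synthesis (-0.02 ± 0.05), did not pass either.

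Of the 3 tested carriers of phosphate and dicarboxylates, 1 rose and 2 did not pass. Slc25a11 exchanges oxoglutarate for malate and is the partner of the aspartate-glutamate exchangers in the malate-aspartate shuttle. Its lowest, median and highest intensities were 900, 1005 and 1145 in controls and 1169, 1355 and 1393 on the low P/S diet. Every low P/S array lay above every control array, although the lowest of them, array 3, exceeded the highest control only slightly. The rise was 1.31-fold (0.39 ± 0.07, adjusted p = 0.000748), with a highest adjusted p of 0.00659 over its alternatives.

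Slc25a10 exchanges dicarboxylates such as malate for phosphate and supplies malate to lipid synthesis in fat-making cells. It ran from 896 through 1127 to 1313 in controls and from 1048 through 1270 to 1336 on the low P/S diet. The groups overlapped widely, and the difference of 0.15 ± 0.08 did not pass (adjusted p = 0.201). Without control arrays 1 and 2 it was 0.23 (adjusted p = 0.0411, in a range of 0.0411 to 0.459 over its alternatives). Slc25a3, which imports phosphate for ATP synthesis, ran from 3042 through 3344 to 3540 and from 3237 through 3341 to 3473. Its medians were nearly equal, and its difference lay at 0.0039 (SE 0.0465, adjusted p = 0.962), with a sign that turned after quantile normalization (-0.06) and when control arrays 1 and 2, control array 3 alone, or either of low P/S arrays 1 and 2 were left out.

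None of the 6 tested carriers of adenine nucleotides and related solutes passed in the limma fit, and none of them had an unadjusted p under 0.05. Slc25a5 encodes the ADP/ATP carrier of proliferating and epithelial cells. It ran from 8057 through 9106 to 11228 in controls and from 8432 through 8997 to 9906 on the low P/S diet. The low P/S arrays all lay inside the control range (-0.04 ± 0.07, adjusted p = 0.696). Its other probe sets gave -0.02 and -0.11. RefSeq lists pseudogenes that carry its name, and which copy each probe set reads is not given. The sign of the brightest turned only without control array 5 (0.01). Slc25a4, the ADP/ATP carrier of muscle and heart, ran from 429 through 492 to 650 and from 399 through 526 to 573 (0.03 ± 0.10, adjusted p = 0.871). All low P/S arrays but array 6 lay inside the control range, and the sign turned after quantile normalization (-0.05), with array weights, and when control arrays 1 and 2, control array 1 or 5 alone, or low P/S array 4 were left out.

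The calcium-regulated carriers of ATP-Mg and phosphate set the size of the adenine nucleotide pool in the matrix. Slc25a25 was the member with the widest spread. It ran from 205 through 238 to 294 in controls and from 177 through 236 to 471 on the low P/S diet, and low P/S arrays 4 and 5 were the highest and the lowest of all 12. Its difference was 0.05 ± 0.17 (adjusted p = 0.843). Leaving out low P/S array 4 gave -0.13, and its sign also turned after quantile normalization and with array weights. Slc25a24 (0.12 ± 0.07) and Slc25a23 (-0.12 ± 0.06) did not pass and differed in opposite directions. Slc25a17, a peroxisomal carrier of coenzyme A, FAD and nucleotides, was at 0.14 ± 0.07 (adjusted p = 0.137), with low P/S array 5 above the rest at 550 and all 6 low P/S arrays above the control median.

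Among 7 carriers of cofactors and pyrimidine nucleotides, 1 rose, 2 fell and 4 did not pass. Slc25a32 imports folate or the flavin cofactor FAD. It ran from 181 through 210 to 228 in controls and from 205 through 252 to 301 on the low P/S diet, where 5 arrays lay above the highest control and array 3 fell inside the control range. The rise was 1.19-fold (0.26 ± 0.08, adjusted p = 0.0300). It no longer passed when control array 3, 5 or 6 was left out, nor when low P/S array 2, 4 or 5 was, and it passed in 15 of 22 alternatives (highest adjusted p = 0.0748).

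Slc25a36 carries pyrimidine nucleotides needed for mitochondrial DNA and RNA. It ran from 1424 through 1798 to 2061 in controls and from 1152 through 1524 to 1636 on the low P/S diet. All low P/S arrays lay below the control median, and 2 lay below the lowest control. The fall was 1.21-fold (-0.27 ± 0.09, adjusted p = 0.0397), and its other probe set, whose locus is not given either, also gave -0.27. The call passed in 10 of 22 alternatives (highest adjusted p = 0.0963) and was lost when any of control arrays 1, 3, 4 and 6 or any of low P/S arrays 1, 3 and 4 was left out. Its relative Slc25a33, also a pyrimidine nucleotide carrier gene, was at 0.02 ± 0.06 (adjusted p = 0.863).

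Slc25a51 imports NAD into mitochondria. It ran from 645 through 708 to 750 in controls and from 584 through 647 to 679 on the low P/S diet, with all low P/S arrays below the control median and 3 below the lowest control. The fall was 1.11-fold (-0.15 ± 0.05, adjusted p = 0.0456). It passed in 10 of 22 alternatives (highest adjusted p = 0.123) and ended without any control array but the third, or without low P/S array 1, 3 or 4. The carrier genes for S-adenosylmethionine, Slc25a26 (0.12 ± 0.04, adjusted p = 0.0636), and coenzyme A, Slc25a42 (-0.06 ± 0.06), and Slc25a16 (0.04 ± 0.06) did not pass. For Slc25a26, all 6 low P/S arrays lay above the control median, and the gene passed as higher in 4 of 22 alternatives, among them the fit without control array 1 (adjusted p = 0.0418, in a range of 0.0236 to 0.133 over its alternatives).

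Among the relatives of uncoupling proteins, Slc25a30 rose and Slc25a14 did not pass. Slc25a30 ran from 238 through 296 to 374 in controls and from 336 through 375 to 501 on the low P/S diet. Low P/S arrays 1 and 2 were the highest, all 6 lay above the control median, and the groups overlapped. The rise was 1.31-fold (0.39 ± 0.11, adjusted p = 0.0209). It passed in 20 of 22 alternatives, the exceptions being the fit without control array 6 and the ordinary variance per gene (highest adjusted p = 0.0715). Slc25a14 was at -0.14 ± 0.05 (adjusted p = 0.0723), with all 6 low P/S arrays below the control median, and passed as lower without control array 5 (adjusted p = 0.0316, in a range of 0.0316 to 0.156 over its alternatives).

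Among 5 tested members whose solute is not well established, 2 rose and 3 did not pass. Slc25a46, an outer membrane protein that shapes mitochondria, ran from 411 through 468 to 540 in controls and from 526 through 565 to 620 on the low P/S diet. Low P/S arrays lay above the highest control in 5 of 6 cases, and the rise was 1.20-fold (0.26 ± 0.07, adjusted p = 0.00940). Slc25a34 ran from 132 through 141 to 154 and from 147 through 163 to 181. Here too 5 of 6 low P/S arrays lay above the highest control, and the rise was 1.16-fold (0.21 ± 0.06, adjusted p = 0.0143). Slc25a45 was at 0.20 ± 0.07 and did not pass (adjusted p = 0.0559), but passed as higher in 6 of 22 alternatives, namely without control array 1, low P/S array 3 or 6, or control arrays 1 and 2 together, with array weights and with the stricter filter (adjusted p from 0.0120 to 0.155 over its alternatives). Slc25a35 (0.06 ± 0.05) and Slc25a47 (-0.09 ± 0.08) did not pass.

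**Figure D2:**
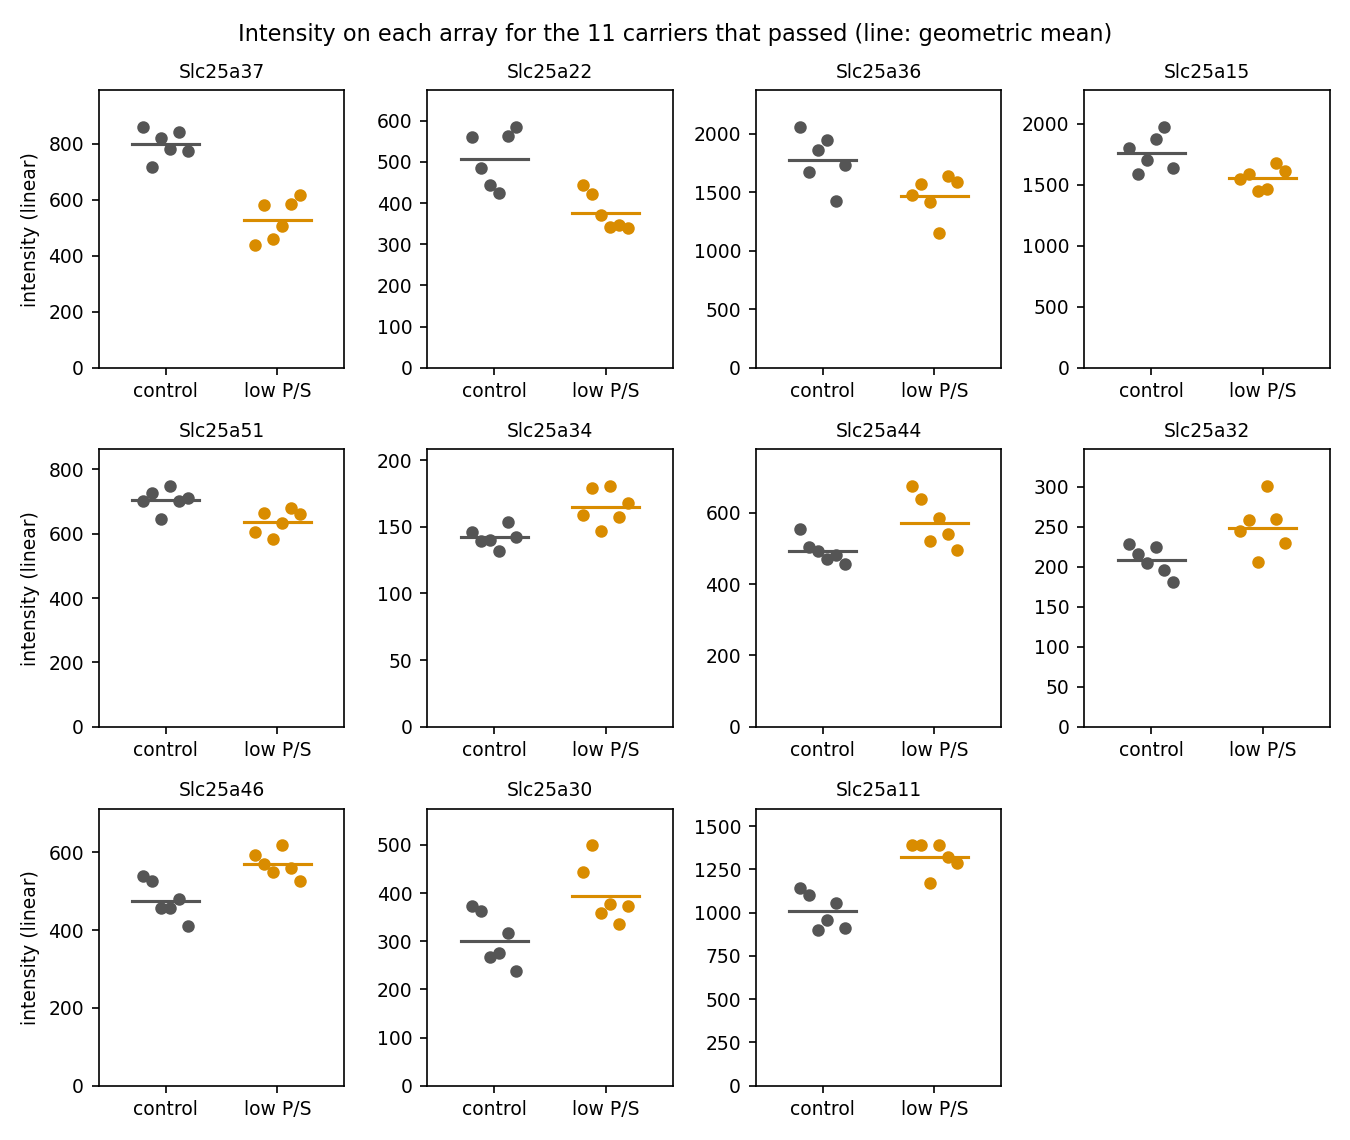
Intensity on every array, on a linear scale from 0, for the 11 carrier genes that passed, with control arrays in grey and low P/S arrays in orange, each in the order of array number. Points are arrays and lines are geometric means over 6 arrays. The groups are apart for Slc25a37 and Slc25a11 and share part of their range in the other 9 genes.

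For 34 of the 44 members, and 6 of the 11 that passed, a start site was matched by symbol in the RefSeq promoter table of build GRCm38.p6. The 250 bases before the start are shown for the pair that rose most and the pair that fell most among those 6, so that the letters next to the genes that changed can be read. The arrays carry no measurement at these sites. Capitals mark matches on either strand to the GC box with letters GGGCGG, the CCAAT box spelled by its name, the E-box with letters CACGTG, or a nuclear receptor half-site with letters AGGTCA, and sequences run 5′ to 3′ on the strand of the gene. Slc25a22 has 3 listed starts, and the outermost is shown.
Slc25a11, chr11:70647040-70647289, minus strand: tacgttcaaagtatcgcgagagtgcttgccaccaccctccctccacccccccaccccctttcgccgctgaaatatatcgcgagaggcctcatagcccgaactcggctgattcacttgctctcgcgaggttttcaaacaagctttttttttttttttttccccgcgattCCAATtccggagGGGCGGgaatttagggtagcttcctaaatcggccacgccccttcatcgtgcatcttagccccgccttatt
Slc25a30, chr14:75787038-75787287, minus strand: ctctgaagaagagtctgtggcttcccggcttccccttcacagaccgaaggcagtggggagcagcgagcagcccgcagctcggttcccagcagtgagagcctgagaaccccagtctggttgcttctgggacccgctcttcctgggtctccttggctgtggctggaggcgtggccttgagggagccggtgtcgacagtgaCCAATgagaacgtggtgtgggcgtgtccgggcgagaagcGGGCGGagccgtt
Slc25a22, chr7:141437875-141438124, minus strand: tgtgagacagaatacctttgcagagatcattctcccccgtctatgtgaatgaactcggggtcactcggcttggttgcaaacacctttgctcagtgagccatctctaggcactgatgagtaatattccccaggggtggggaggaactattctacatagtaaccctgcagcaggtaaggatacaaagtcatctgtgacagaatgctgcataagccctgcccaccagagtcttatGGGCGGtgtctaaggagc
Slc25a36, chr9:97111042-97111291, minus strand: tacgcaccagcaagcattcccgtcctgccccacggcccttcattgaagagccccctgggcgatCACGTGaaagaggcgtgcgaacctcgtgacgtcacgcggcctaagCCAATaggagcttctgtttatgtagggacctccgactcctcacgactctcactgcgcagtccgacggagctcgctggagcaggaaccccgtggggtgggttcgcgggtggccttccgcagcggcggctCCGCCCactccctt

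Slc25a11 and Slc25a30, which rose, both hold a CCAAT box followed by a GC box, beginning 82 and 70 bases before the start in Slc25a11 and 52 and 13 bases before it in Slc25a30. Slc25a36, which fell, holds the same pair in the same order, 142 and 14 bases before the start, and an E-box further out. The outermost Slc25a22 window holds a GC box alone. Of its inner windows, 1 holds 3 GC boxes and a CCAAT box, which begins 32 bases before the start, and the other holds 1 GC box. Counting start windows, a GC box stood in 68.2% of the 44 windows of members, against 32.7% of all 32851 windows, a CCAAT box in 45.5% against 33.8%, an E-box in 15.9% against 6.02%, and a half-site in 9.09% against 14.0%. Several windows belong to the same gene, and these shares describe the letters only. Counted by gene over any of its windows, a GC box was found in 23 of the 34 matched members (67.6%). No share by gene was taken over all genes. Among the 6 matched genes that passed, a GC box was found in all 6 by the same count, in the 3 that rose and the 3 that fell alike.

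Enzymes and transporters that work beside the carriers, together with the family members left out by the symbol rule, were read from pathway lists. The lists were chosen with earlier results of these data known, so their counts describe the listed genes only. Of 64 tested genes, 26 were higher, Slc25a1 and Slc25a20 among them, and 3 were lower. Over all genes tested the shares were 17.8% and 7.87%. In the malate-aspartate and glycerol phosphate shuttles, 2 of 6 enzyme genes rose and 1 fell. Got2, the matrix aspartate aminotransferase, rose 1.57-fold (0.65 ± 0.10, adjusted p = 0.000385) and its cytosolic counterpart Got1 rose 1.37-fold (0.45 ± 0.12, adjusted p = 0.00940). These rose together with Slc25a11 of the same shuttle, while the malate dehydrogenase genes Mdh1 (-0.10 ± 0.06) and Mdh2 (0.13 ± 0.07) and the cytosolic glycerol phosphate dehydrogenase gene Gpd1 (0.18 ± 0.07) did not pass. Gpd2, the mitochondrial glycerol phosphate dehydrogenase, fell by 0.24 ± 0.08 (adjusted p = 0.0292), which was lost when control arrays 1 and 2 were both left out, when control array 5 or 6 or any of low P/S arrays 3, 4, 5 and 6 was, and in 3 other settings (highest adjusted p without any array = 0.0699).

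Of 10 tested genes of arginine, ornithine, proline and glutamate metabolism, 3 rose and 1 fell. Glud1, the matrix glutamate dehydrogenase, fell 1.54-fold (-0.62 ± 0.08, adjusted p = 9.13e-05), in the same direction as the glutamate carrier gene Slc25a22. Cps1, which makes carbamoyl phosphate, rose 1.35-fold (0.44 ± 0.07), Aldh18a1, of proline and ornithine synthesis from glutamate, rose 1.49-fold (0.57 ± 0.13), and the argininosuccinate lyase gene Asl rose 1.13-fold (0.18 ± 0.05). Otc, which joins ornithine and carbamoyl phosphate into citrulline, was at 0.0041 (SE 0.0624, adjusted p = 0.970), beside the fall of the ornithine carrier gene Slc25a15. Quantile normalization gave 3 lower genes in this list, array weights gave 2, and 2 were lower without control arrays 1 and 2, without control array 2 or 3, or without low P/S array 3.

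In heme and iron-sulphur cluster synthesis 6 of 10 tested genes rose and 4 did not pass, whereas the iron carrier gene Slc25a37 fell. Alas1, the entry enzyme of heme synthesis, rose 1.41-fold (0.50 ± 0.09, adjusted p = 0.000904), and Glrx5, a glutaredoxin of cluster assembly, rose 1.27-fold (0.35 ± 0.06, adjusted p = 0.000904). Ppox rose by 0.31 ± 0.07 and Nfs1, the cysteine desulphurase, by 0.22 ± 0.06. Cpox (0.24 ± 0.07) and Iscu (0.17 ± 0.06) rose too, although Iscu was lost when any of control arrays 3, 4, 5 and 6 or of low P/S arrays 1, 2 and 4 was left out (highest adjusted p = 0.0951). Fech, which inserts iron into heme, was at 0.17 ± 0.07 and did not pass (adjusted p = 0.0871).

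Of 6 tested genes of mitochondrial folate metabolism and glycine cleavage, 2 rose and 4 did not pass, beside the rise of the folate or FAD carrier gene Slc25a32. Dld, a flavoprotein shared by several dehydrogenase complexes, rose 1.23-fold (0.29 ± 0.08), and Mthfd1l, which releases formate, rose 1.13-fold (0.17 ± 0.05). Mthfd2 (0.17 ± 0.07, adjusted p = 0.0963) and Shmt2 (0.11 ± 0.06) did not pass. Without control arrays 1 and 2, 4 of these genes rose. In the tricarboxylic acid cycle, which shares oxoglutarate and malate with Slc25a11, 7 of 15 genes rose and 1 fell. Fh1 rose by 0.37 ± 0.06, Suclg1 by 0.34 ± 0.06 and Idh3b by 0.32 ± 0.05, and Ogdh, a subunit of oxoglutarate dehydrogenase, fell by 0.32 ± 0.07 (adjusted p = 0.00319).

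**Figure D3:**
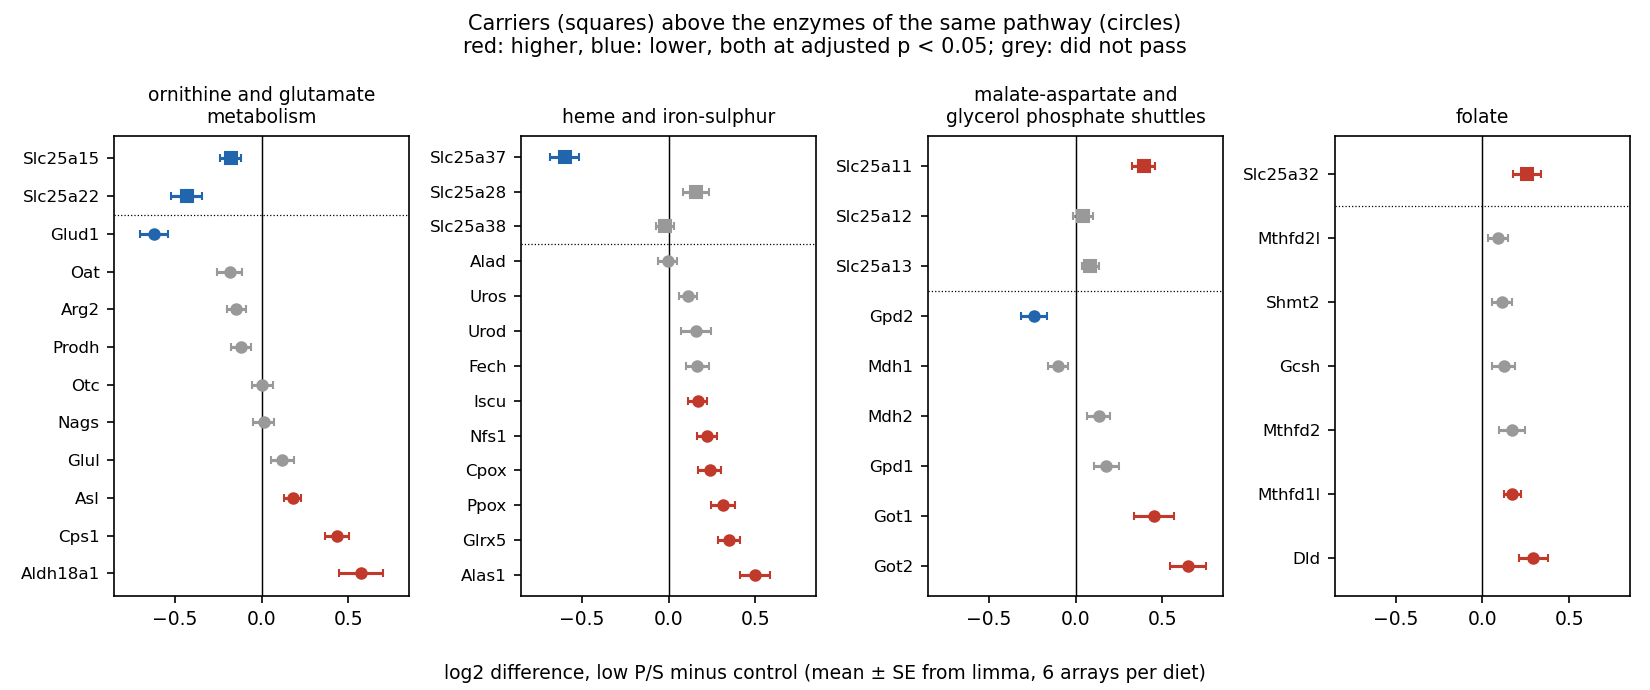
Log2 difference between the diets for carrier genes (squares, above the dotted line) and tested enzyme genes of the same pathway (circles), in 4 panels. Points are low P/S minus control means, bars are standard errors from limma with 6 arrays per diet, and red, blue and grey mark higher, lower and not passing. Slc25a11 lies on the same side as Got1 and Got2 and opposite to Gpd2. Slc25a22 lies on the same side as Glud1 and opposite to Cps1, Aldh18a1 and Asl, which rose. Slc25a37 lies on the side opposite to the 6 heme and cluster genes that rose.

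Of 9 family members listed outside the symbol rule, 6 had a probe set that names them alone and were read on the same arrays. Slc25a20, which brings acylcarnitines into the matrix for oxidation, rose by 0.64 ± 0.12 (adjusted p = 0.00139), and Slc25a1, which exports citrate for lipid synthesis, rose by 0.56 ± 0.09 (adjusted p = 0.000436), and in both every low P/S array lay above every control array. Both differences were of greater size than any of the 6 rises among the 34 carriers. The outer membrane relatives Mtch2 (0.13 ± 0.05, adjusted p = 0.0691) and Mtch1 (-0.01 ± 0.05) did not pass, and the uncoupling protein genes Ucp1 and Ucp3 were too dim to test. Ucp2 was not among the 6 members read. Of 13 tested mitochondrial transporters outside the family, 4 rose and 9 did not pass. They were Cpt2 (0.41 ± 0.09), which works beside Slc25a20, the ABC transporter genes Abcb6 (0.26 ± 0.06) and Abcb8 (0.25 ± 0.08), and the porin gene Vdac3 (0.21 ± 0.07). The calls of Abcb8 and Vdac3 each ended without control array 3, 5 or 6, that of Abcb8 also without low P/S array 2 and that of Vdac3 also without low P/S array 1, 4 or 5. Quantile normalization gave 3 higher and 3 lower genes in this list.

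Other mitochondrial gene groups were set beside the carriers on the same fit. Of 78 tested genes of the respiratory chain and ATP synthase, 51 rose and 1 fell, with a median difference of 0.20. Of 76 mitochondrial ribosomal protein genes 55 rose and 0 fell (median 0.25), and of 22 genes of the protein import machinery 16 rose and 0 fell (median 0.27). Among the carriers 6 of 34 were higher, against 17.8% of all genes tested, with a median of 0.04 against 0.02. Lower carriers were 5 of 34, against 7.87% of all genes tested. With quantile normalization the counts of higher genes were 35, 48 and 14 in these 3 groups and 5 among the carriers, with medians of 0.12, 0.18, 0.20 and -0.01. Without control arrays 1 and 2 they were 52, 64, 17 and 9. When 1 array was left out, the counts of higher genes ran from 37 to 52, 47 to 59, 15 to 17 and 3 to 8. No test was made of the difference between the groups of genes.

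**Figure D4:**
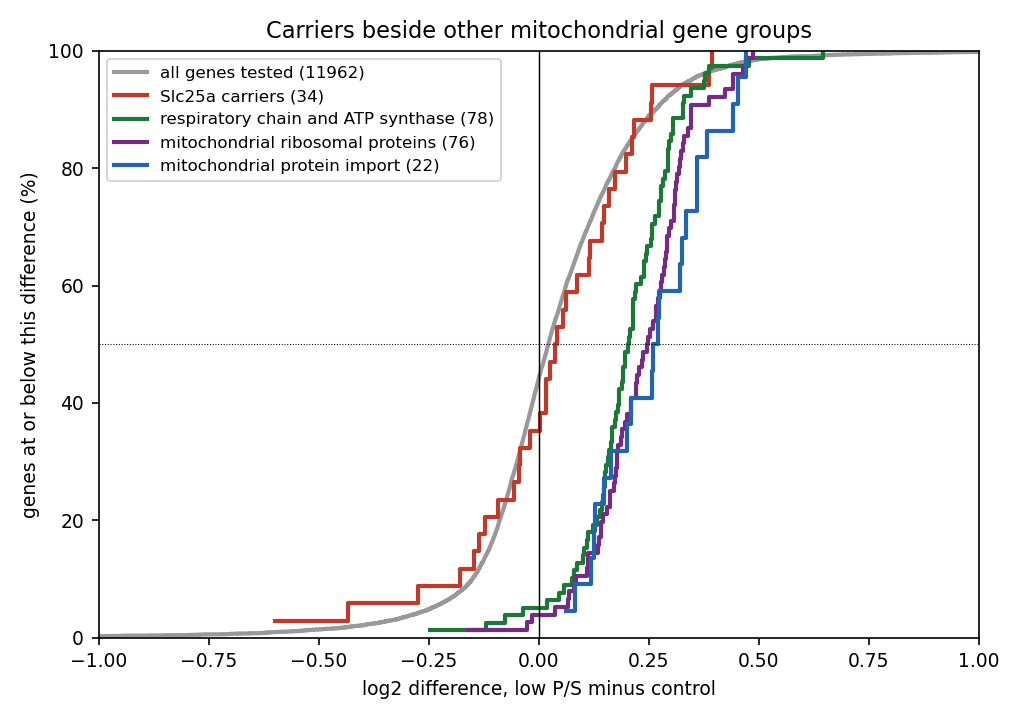
Cumulative share of genes by log2 difference between the diets (low P/S minus control, from limma with 6 arrays per diet) for all 11962 genes tested, the 34 carriers and 3 other mitochondrial gene groups. The curve of the carriers follows that of all genes with a median of 0.04, while the medians of the other groups lie at 0.20, 0.25 and 0.27.

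The 10 dim carriers had group geometric means between 39.6 and 84.9, and all 10 had a slightly lower geometric mean on the low P/S diet. They were Slc25a2, Slc25a18, Slc25a21, Slc25a27, Slc25a31, Slc25a41, Slc25a43, Slc25a48, Slc25a53 and Slc25a54. Slc25a31, the ADP/ATP carrier of the germ line, had geometric means of 41.0 and 39.6. With no filter on dim genes 0 of the 10 passed in limma and 3 had an unadjusted p under 0.05 (Slc25a2, Slc25a18 and Slc25a53), and the smallest adjusted p was 0.0722 for Slc25a2, at 82.4 in controls and 75.1 on the low P/S diet.

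Arrays of the same diet differed in a way that many carriers shared. Control array 3 was the lowest control for 14 of the 34 carriers and control array 1 the highest for 14. Low P/S array 3 was the lowest of its group for 18, with a median deviation of -0.10 from the group median. The median within-group SD was 0.13 on the log2 scale for the carriers and 0.11 for all genes tested, and it ranged among the carriers from 0.05 to 0.37.

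Some markers of enterocytes and of crypt proliferation differed between the diets, and others in the same lists did not pass. Of 9 enterocyte markers, 4 fell and 0 rose, and their summed intensity ran from 53809 to 71051 in controls and from 51881 to 58562 on the low P/S diet. Vil1 (-0.30 ± 0.06), Sis (-0.37 ± 0.08), Epcam (-0.17 ± 0.05) and Krt20 (-0.23 ± 0.07) fell. The Krt20 call ended without control array 5 or low P/S array 3, 5 or 6. Apob (-0.17 ± 0.06), Apoa4 (-0.05 ± 0.09), Fabp2 (-0.01 ± 0.07), Alpi (0.01 ± 0.07) and Cdh17 (0.0008, SE 0.0547) did not pass. Of 7 tested crypt proliferation markers, 4 rose and 0 fell, with sums of 3592 to 5621 and 4438 to 6240. Mki67 (0.43 ± 0.11), Cdk1 (0.40 ± 0.11), Mcm5 (0.25 ± 0.07) and Top2a (0.45 ± 0.13) rose. The Top2a call ended without control array 4 or low P/S array 4. Pcna (0.34 ± 0.13), Lgr5 (-0.14 ± 0.07) and Olfm4 (-0.0042, SE 0.114) did not pass. Over all genes tested, 17.8% were higher and 7.87% were lower. After median centring 2 enterocyte markers fell. None of the 8 smooth muscle markers passed in limma and 0 had an unadjusted p under 0.05, with sums of 7616 to 10892 and 6127 to 8803. None of the tested markers of adipose tissue (4), skeletal and heart muscle (5), erythrocytes (1) or exocrine pancreas (3) passed in limma, and 2 of adipose tissue and 1 of pancreas had an unadjusted p under 0.05. Adipose markers had sums of 767 to 2110 in controls and 781 to 1922 on the low P/S diet, and without control array 1, 3 of the 4 tested were lower. The 2 with an unadjusted p under 0.05 had opposite signs, Plin1 at -0.26 ± 0.10 and Cidec at 0.32 ± 0.14, and Cidec passed as higher without low P/S array 5 or 6. No listed marker was at 0 on any array, but the lowest deposited value of any probe set was 17.7, so this does not show detection. The part of these shifts in the carrier results was not tested.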

How the data were processed

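Per the labels, total RNA (500 ng per sample, without rRNA reduction) was hybridized to 12 arrays of biological replicates. The deposited intensity values are the authors' linear, summarized values per probe set, from 17.7 to 20294, with array medians of 91.9 to 99.5. The labels do not state their summarization or normalization. Array number and signal, not read depth, limit the precision, and the median standard error was 0.061.

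Of 34760 probe sets, 21640 carried 1 gene symbol, 1321 several and 11799 none. The brightest probe set stood for each of 19937 genes, and 7975 genes under the 40th percentile of mean intensity were left out. Values were log2-transformed without further scaling and compared in R 4.3.3 with limma 3.58.1 (lmFit, eBayes), with Benjamini-Hochberg adjustment over all 11962 genes tested and a threshold of 0.05. Replicate number was not a block. Members and lists were chosen with earlier results of these data known. All carriers are named, with full values for those that passed and for a set of main energy, shuttle and urea cycle carriers, and up to 4 genes of smallest p per pathway list. Mdh1, Mdh2, Otc, Fech, Cpox and Iscu were added after their values were seen. Protein sequences were not analysed here. On simulated data, limma recovered 21 of 50 planted differences of 0.25 and 49 of 50 of 0.5, with 6 false among 176 calls. The simulated noise was drawn separately for each gene, whereas here many carriers deviated together by array. The 6 false calls therefore do not measure the false calls in these arrays. Alternatives were other scalings (quantile, median centring), array weights, other variance models, filters, a pseudocount of 16, the mean of probe sets, a replicate block and leaving out each array; leaving out control arrays 1 and 2 together was chosen after seeing the data.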

Additional observations from a re-analysis of the deposited data

Results flagged for a closer look

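In 4 of 88 sets of 6 arrays checked, the highest array stood away from the other arrays of its diet by more than Dixon's criterion allows, and chance gives about 1 such set in 20. For Slc25a17, the peroxisomal cofactor carrier gene, low P/S array 5 read 550 against 458 for the next. For Slc25a28, mitoferrin 2, low P/S array 2 read 602 against 474. For the glutathione carrier gene Slc25a39, low P/S array 2 read 1609 against 1372. For Slc25a47, whose solute is not well established, low P/S array 3 read 116 against 97.4, although array 3 was the lowest of its diet for 18 of the 34 carriers. None of these 4 genes passed the test between the diets.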

How the results depend on the processing

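Of the 11 calls, 5 held in all alternatives run, the replicate block included. The count of lower carriers, 5, was 2 after median centring and 3 with no filter, with the ordinary variance, with the trended robust prior and without control arrays 1 and 2, and 2 to 5 when 1 array was left out. The count of higher carriers, 6, ran from 3 to 8 when 1 array was left out. Quantile normalization gave 1543 lower genes against 942, and 8 lower pathway genes against 3, which ran from 2 to 5 when 1 array was left out. With no filter the median was taken over all 44 carriers, the 10 dim ones included, and was -0.000251. Over the 34 carriers tested the median turned to -0.0100 with quantile normalization. Quantile normalization also turned the sign of Slc25a3 (-0.0554), Slc25a4 (-0.0528), Slc25a12 (-0.0158), Slc25a16 (-0.0261), Slc25a25 (-0.00425) and Slc25a40 (-0.0202), array weights that of Slc25a4 (-0.0164) and Slc25a25 (-0.00769), median centring that of Slc25a38 (0.00569), and leaving out control arrays 1 and 2 that of Slc25a3 (-0.00164) and Slc25a4 (-0.0399). Leaving out 1 array gave -0.0231 to 0.0206 for Slc25a3, -0.0181 to 0.102 for Slc25a4, -0.0856 to 0.0101 for Slc25a5, -0.126 to 0.157 for Slc25a25, -0.0241 to 0.0423 for Slc25a33, -0.0422 to 0.0132 for Slc25a38 and -0.0351 to 0.0641 for Slc25a40, none of which passed. The causes were not tested.

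The labels number replicates 1 to 6 in both diets, but same-numbered arrays deviated together with correlations from -0.11 to 0.42, and 4 of 12 arrays correlated best with their own number. With the replicate block there were 9 higher and 4 lower carriers and 5 lower pathway genes. It gained Slc25a10 (adjusted p = 0.0304), Slc25a39 (0.0483) and Slc25a45 (0.0103) as higher, and Slc25a36 no longer passed (0.0627). Differences of 0.25 were recovered in 21 of 50 cases on simulated data. Those data gave 176 calls, against 3074 of 11962 genes here, so the adjusted threshold was stricter there. That recovery therefore does not measure what was detectable in these arrays, where smaller differences also passed, such as Slc25a15 (-0.18) and Slc25a51 (-0.15).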
